A study of Rattus norvegicus with 32 samples.

Results

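The afternoon of cycle day 1 was compared with the morning of the same day in the rat mammary gland, and each difference was set beside the difference between like windows of clock hours on days 2 to 4. The members were the 8 rats of day 1, of 32 in the series: 3 sampled in the morning, at 7, 7.5 and 10 h after midnight of the first cycle day, and 5 in the afternoon, at 13, 13.2, 14.6, 16 and 17.6 h. All were untreated virgin adult Sprague Dawley females with regular 4-day cycles, kept on standard chow, and the study places estrus on day 2. Each rat was killed for 1 array, so no hour was repeated, and the rats of a group differ in clock hour as well as in themselves. The comparison group was 18 rats of days 2 to 4, 8 killed in the morning (clock hours from 7 to before 11 h) and 10 in the afternoon (13 to before 18 h). Hours were not matched within these windows: the mean morning hour was 8.17 on day 1 and 9.07 on days 2 to 4. The mean afternoon hours were 14.88 and 15.03, and day 3 had morning rats of 9 and 10 h only. Group differences between the days carry this mismatch. Slopes use each rat's own hour but assume a straight line. On days 2 to 4 they also take in midday rats (11.5 to 11.9 h) and evening rats (19 and 19.1 h), whereas day 1 had none of these and ended at 17.6 h. Slopes of day 1 and of days 2 to 4 thus cover unlike hours, and comparisons between them carry that. The labels name the fourth mammary glands without lymph nodes, stored in a stabilizing solution, whereas the study describes frozen glands of the left chain, and which was used was not settled here.

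The gland is a fat pad with epithelial ducts, vessels, stroma and resident immune cells, and it reads ovarian and pituitary hormones through receptors in a share of its epithelium. On the day before estrus, estradiol peaks and the afternoon brings surges of luteinizing hormone and prolactin followed by a rise of progesterone, while corticosterone in a night-active animal climbs toward dusk every day. Independently of the cycle, most tissues run a circadian clock in which BMAL1, with CLOCK or NPAS2, switches on Per, Cry and Nr1d genes through E-boxes, PER and CRY proteins block that switch, REV-ERB proteins (from Nr1d1 and Nr1d2) silence Bmal1, and DBP, TEF and HLF act on D-boxes that the repressor NFIL3 also binds.

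Intensities are GC-RMA values of the Rat 230 2.0 array, in arbitrary linear units, where a probe set is a group of short oligonucleotides for 1 transcript. Levels of different probe sets are not on a common scale. After probe sets under 10 on any of the 31 arrays used were dropped, 21068 were kept, of which 15568 named a single gene (11211 genes). Array medians ran from 51.1 to 51.5 in the day 1 morning and from 49.9 to 53.1 in the day 1 afternoon. Fat and epithelium were plainly present in the day 1 rats: the adipocyte hormone gene Adipoq read from 3206 to 7690 and the luminal keratin gene Krt18 from 2666 to 3261. Of 15 T and B lymphocyte markers 7 were measured. Skeletal muscle was the component that differed most from rat to rat: the mean log2 level of 6 muscle markers, relative to the mean of 31 rats, was -4.31 in the rat of 10 h and -3.03 in that of 17.6 h, against 0.19 to 2.41 in the other 6 rats of day 1. In whole tissue, fewer cells of a type and less RNA per cell cannot be told apart.

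Clock genes separated morning from afternoon on day 1 most clearly: of the 10 named probe sets with the lowest unadjusted p, 8 were of clock genes (Dbp, Per3, Bmal1, Npas2, Nr1d1, Nr1d2 and 2 of Tef), and the others were of Fam124a and Ephx1. With the rats taken as 2 groups, however, no probe set passed an adjusted p of 0.05. By limma with Benjamini-Hochberg adjustment, 0 of 21068 probe sets were higher in the afternoon and 0 were lower (0% in each direction). The lowest adjusted p was 0.11, for Dbp. At an unadjusted p under 0.05 there were 529 probe sets higher (2.51%) and 405 lower (1.92%). Together these were 4.43%, no more than is expected at this cutoff when no probe set differs. All 5 afternoon rats lay above all 3 morning rats in 587 probe sets (2.79%) and below them in 378 (1.79%). Over days 2 to 4, with 18 rats, 19 probe sets were higher (0.0902%) and 16 lower (0.0759%). Of these 35, 31 named a single gene and stood for 23 genes, so they are not 35 separate cases. All 35 had the same sign on day 1, though the share with the same sign over all probe sets was not counted. In 18 of the 35 the day 1 groups did not overlap in that direction. Over all probe sets the median log2 difference was 0.007 on day 1 and 0.012 on days 2 to 4, with a median SE of 0.167 and 0.11. The differences of the 2 rat sets, which share no rats, correlated over probe sets at r = 0.38 (0.27 by Spearman's ranks), a description only, since probe sets are not independent.

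When each rat's clock hour entered the fit as a slope, in place of 2 groups, day 1 had calls. In 31 rats, the day 1 slope was upward in 16 probe sets (0.0759%) and downward in 7 (0.0332%) at an adjusted p of 0.05 by limma. Those 23 probe sets stand for 17 genes: 9 clock genes and 8 others. The days 2 to 4 slope was upward in 152 probe sets (0.721%) and downward in 84 (0.399%). Of the 23 day 1 calls 21 also passed on days 2 to 4, all 23 with the same sign in both. The number of day 1 calls rested on the earliest rat: without the rat of 7 h it was 4 upward and 1 downward, and without that of 16 h it was 8 and 2. "Rose" and "fell" are used below for genes whose day 1 slope passed.

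The promoters of 4 of the clock genes are shown because each holds a motif of the loop that the gene belongs to. They are RefSeq windows on GRCr8, from 250 bases before to 50 after the annotated start, read 5′ to 3′ on the gene's strand, with the match in capitals. The first 2 hold the E-box CACGTG that BMAL1 binds: Tef at chr7:115206577-115206876 (+ strand) and Bhlhe40 at chr4:143174200-143174499 (+ strand). The Per2 window, chr9:99496944-99497243 (- strand), holds a D-box, TTATGTAA. The Bmal1 window, chr1:176766078-176766377 (+ strand), holds the REV-ERB and ROR element, AGGTCA preceded by AANT.
Tef: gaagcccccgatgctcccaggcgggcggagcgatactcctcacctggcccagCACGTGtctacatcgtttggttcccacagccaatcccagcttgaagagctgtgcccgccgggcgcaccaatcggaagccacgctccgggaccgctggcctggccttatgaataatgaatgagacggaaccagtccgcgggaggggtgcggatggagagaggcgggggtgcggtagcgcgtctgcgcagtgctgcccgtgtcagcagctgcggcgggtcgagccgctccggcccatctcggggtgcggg
Bhlhe40: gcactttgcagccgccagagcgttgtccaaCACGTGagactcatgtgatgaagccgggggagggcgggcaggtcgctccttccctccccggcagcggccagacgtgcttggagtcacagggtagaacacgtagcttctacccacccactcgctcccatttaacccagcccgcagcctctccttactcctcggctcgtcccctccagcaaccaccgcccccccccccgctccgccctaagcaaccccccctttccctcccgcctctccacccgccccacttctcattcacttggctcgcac
Per2: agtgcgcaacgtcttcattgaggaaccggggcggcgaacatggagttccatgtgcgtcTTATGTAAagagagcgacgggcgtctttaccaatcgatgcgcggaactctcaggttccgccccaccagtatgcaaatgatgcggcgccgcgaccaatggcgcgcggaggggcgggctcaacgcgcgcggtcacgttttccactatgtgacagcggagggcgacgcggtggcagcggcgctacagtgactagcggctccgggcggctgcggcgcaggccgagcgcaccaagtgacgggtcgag
Bmal1: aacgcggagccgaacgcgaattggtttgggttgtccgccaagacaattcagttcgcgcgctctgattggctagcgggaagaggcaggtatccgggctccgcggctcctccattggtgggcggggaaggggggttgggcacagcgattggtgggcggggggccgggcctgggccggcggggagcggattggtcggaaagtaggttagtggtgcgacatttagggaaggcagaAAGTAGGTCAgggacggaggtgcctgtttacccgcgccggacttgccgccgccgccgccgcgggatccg
Both strands of 33469 windows were searched. The E-box was in 2148 of them (6.42%), the D-box (TTATGTAA or TTACGTAA) in 338 (1.01%) and the REV-ERB and ROR element in 82 (0.245%), and no matches overlapped in the windows shown. Among clock genes driven through E-boxes and D-boxes, 13 were measured and 11 had a window, and 4 held an E-box (Tef, Bhlhe40, Bhlhe41 and Nr1d1) and 1 a D-box. Of 5 measured genes of the BMAL1 arm 4 had a window, and Bmal1 alone held the REV-ERB and ROR element. None of the 8 other genes with a day 1 slope held any of the 3 in a window. A match is a description of letters, and the absence of one covers these windows only.

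Dbp, Tef, Per2 and Per3 were low in the early morning and high by the afternoon of day 1. Dbp, a PAR bZIP activator at D-boxes and a classic clock output, read 67.1, 75.6 and 401 at 7, 7.5 and 10 h, and 588, 792, 977, 1357 and 1073 in those of 13 to 17.6 h. All afternoon rats were above all morning rats, with the rat of 10 h between the 2 earlier ones and the afternoon. The log2 difference was 2.86 ± 0.48 (SE, n = 3 and 5), against 2.96 ± 0.31 on days 2 to 4 (adjusted p by limma 2.98e-05), and the separate days gave 3.23, 2.87 and 2.79. Dbp rose with clock hour on day 1 by 4.14 ± 0.63 per 10 h on the log2 scale (adjusted p by limma 0.00106).

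Tef, the second PAR bZIP gene, had 3 probe sets and rose in all 3. In the one with the lowest p it read 13.6, 10.5 and 33.5 in the morning rats and 44.5, 53, 73.3, 112 and 85.7 in the afternoon rats, in order of hour. The groups did not overlap in any of the 3 probe sets. The day 1 differences were 2.05 ± 0.40, 1.51 ± 0.37 and 1.47 ± 0.32 log2, and those of days 2 to 4 were 1.75, 1.77 and 1.87. Slopes were 3.04, 2.35 and 2.12 per 10 h, with adjusted p by limma of 6.57e-05, 0.000208 and 0.00102. Hlf, the third member of the family, rose in 2 of its 3 probe sets, by 1.50 ± 0.31 (adjusted p by limma 0.0448) and 1.43 ± 0.27 (0.016) per 10 h. Here the morning and afternoon rats overlapped: in the second of these the morning read 135, 213 and 276 and the afternoon 222, 266, 368, 401 and 534. Its day 1 difference, 0.78 ± 0.33, was below the 1.47 ± 0.21 of days 2 to 4, and the 95% interval of the difference between them ran from -1.50 to 0.12.

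Of the period genes, which repress BMAL1, Per3 and Per2 rose and Per1 did not pass. Per3 read 63.9, 72.5 and 240 in the morning rats and 323, 414, 358, 500 and 471 in the afternoon rats, with no overlap. Its difference was 1.98 ± 0.37 log2 on day 1 and 1.76 ± 0.25 on days 2 to 4, and its slope 2.84 ± 0.37 per 10 h (adjusted p by limma 0.000208). Per2 read 189, 86.9 and 221 in the morning and 231, 364, 482, 745 and 1030 in the afternoon, without overlap, and was highest in the latest rat, whereas Dbp was highest in that of 16 h. Its slope was 2.76 ± 0.46 per 10 h (adjusted p by limma 0.00422), against 3.32 on days 2 to 4. Per1 overlapped, at 58.5 to 120 in the morning and 69.9 to 246 in the afternoon, with a log2 difference of 0.68 ± 0.44. Over the whole cycle, the study put Per1 among genes that increase through the day, and it reports a circadian pattern for Per1 by real time PCR. Cry2, a cryptochrome and partner of PER, had a difference of 0.42 ± 0.22, beside 0.38 ± 0.15 on days 2 to 4. Its slope passed on days 2 to 4 (0.69 per 10 h, adjusted p by limma 0.0282) and not on day 1.

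The REV-ERB genes, whose products silence Bmal1, were near their afternoon levels by 10 h. Nr1d2 rose in all 3 of its probe sets, by 2.06, 1.82 and 1.61 per 10 h (adjusted p by limma 0.00104, 0.0109 and 0.0224). In the probe set with the lowest p it read 74.3, 66.1 and 176 in the morning and 226, 240, 263, 262 and 300 in the afternoon. In another the rat of 10 h, at 1229, was already above the afternoon rats of 13 and 13.2 h, at 1093 and 1106. Nr1d1 read 14.7, 33.6 and 224 in the morning and 240, 331, 303, 403 and 205 in the afternoon, with the rat of 10 h above that of 17.6 h. Its difference of 2.58 ± 0.58 log2 was the second largest of the clock genes after Dbp, and its slope did not pass (adjusted p by limma 0.0852).

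The remaining genes of the arm had positive estimates on day 1, as all 13 did, and no call. Bhlhe40, a repressor that competes for E-boxes, read 245, 244 and 238 in the morning and 468, 455, 322, 481 and 360 in the afternoon, with no overlap and a difference of 0.76 ± 0.20 log2. The deubiquitinase gene Usp2 (1.19 ± 0.40) and the mitotic checkpoint kinase gene Wee1 (0.83 ± 0.26) also did not overlap. Bhlhe41, a close relative of Bhlhe40, did, at 0.33 ± 0.21. In all, 8 of the 13 genes were above the morning in all afternoon rats, where 2.79% of all probe sets were, and 6 of the 13 had an upward slope past the threshold, where 0.0759% did. The slope count was 12 of 13 on days 2 to 4. The median difference of the list was 1.10 log2 on day 1 and 1.34 on days 2 to 4.

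**Figure D1:**
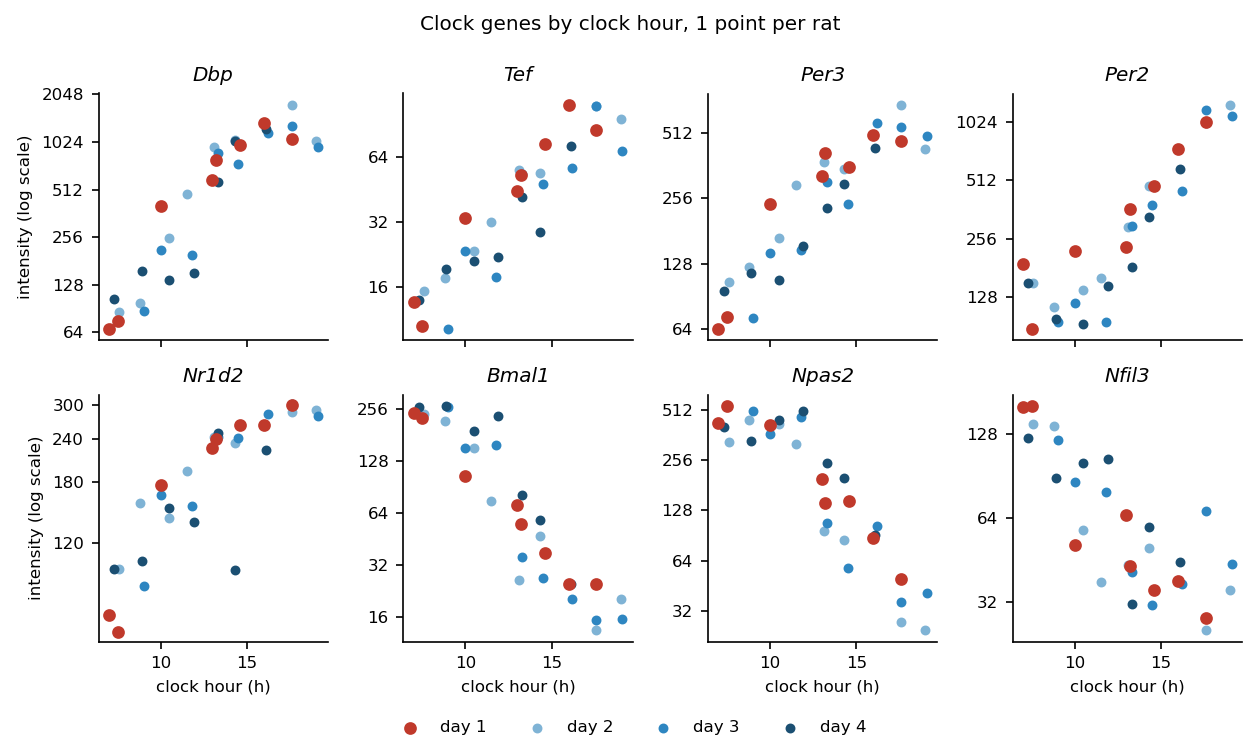
Intensity on a log2 axis against the clock hour of sampling in h, 1 point per rat, for the rats of day 1 (red) and of days 2, 3 and 4 (blues), 31 rats in all, for 8 clock genes in the probe set with the lowest unadjusted p on day 1. Among the red points, Dbp, Tef, Per3, Per2 and Nr1d2 are lowest before 10 h (Dbp 67.1 and 75.6) and Bmal1, Npas2 and Nfil3 highest there, and the red points lie near the blue ones of like hour.

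The activators ran the other way. Bmal1, which encodes the core activator, read 244, 228 and 105 in the morning rats and 71.5, 55.1, 37.5, 24.8 and 24.8 in the afternoon rats. The groups did not overlap, and the 2 latest rats were lowest. The difference was -2.20 ± 0.44 log2, beside -2.78 ± 0.29 on days 2 to 4 (adjusted p by limma 2.98e-05), and Bmal1 fell by 3.33 ± 0.48 per 10 h on day 1 (adjusted p by limma 0.000641). Npas2, the alternative partner of BMAL1, kept its level through 10 h, at 428, 541 and 418, and then read 198, 142, 145, 87 and 49.7. It fell by 3.03 ± 0.55 per 10 h (adjusted p by limma 0.011). Nfil3, the D-box repressor, read 160 and 162 in the 2 earliest rats, 51.2 in that of 10 h and 65.7, 43.2, 35.2, 38.1 and 28.1 after that, so the groups overlapped at 10 and 13 h. It fell by 2.31 ± 0.45 per 10 h (adjusted p by limma 0.0224).

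Clock itself, the usual partner of BMAL1, had a smaller difference of -0.49 ± 0.13 log2 in its brighter probe set (831, 868 and 753 against 653, 564, 630, 559 and 514, with no overlap). Its other probe set overlapped, at -0.17 ± 0.17, so the 2 probe sets disagreed in size. Cry1, the cryptochrome gene counted in this arm because REV-ERB proteins silence it, read 150 and 144 in the 2 earliest rats, 41.4 to 65.7 in those of 10 to 16 h and 139 in that of 17.6 h. Its groups overlapped, with a difference of -0.64 ± 0.45. Of the 5 measured genes of the BMAL1 arm, 3 were below the morning in all afternoon rats, where 1.79% of all probe sets were, and 3 had a downward slope past the threshold, where 0.0332% did. The list's median was -1.45 log2 on day 1 and -1.32 on days 2 to 4.

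For no clock gene did the day 1 difference depart from that of days 2 to 4 at an unadjusted p under 0.05. The 95% intervals of the difference were wide: from -1.28 to 1.08 log2 for Dbp, from -0.51 to 1.67 for Bmal1, from -0.71 to 1.14 for Per3 and from -1.45 to 1.01 for Per2. As slopes, 3 probe sets had an unadjusted p by limma under 0.05. Of these, 2 were of Hlf, with lower slopes on day 1 (-0.85 per 10 h, interval -1.49 to -0.21, p 0.0111, in a probe set whose own day 1 slope did not pass, and -0.79, interval -1.44 to -0.14, p 0.0189, in the one named above). The other was of Nr1d2, with a higher slope (0.78, interval 0.03 to 1.53, p 0.0422). None passed adjustment.

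**Figure D2:**
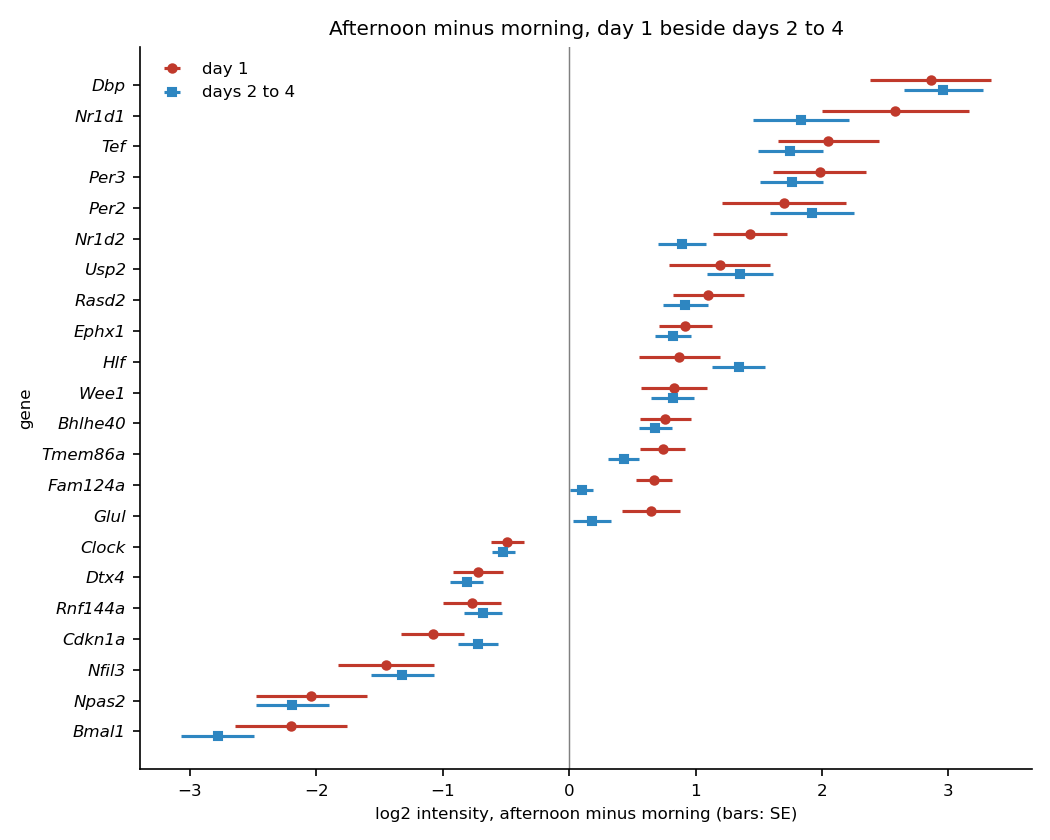
Afternoon minus morning log2 intensity, with SE bars, on day 1 (red circles, 3 and 5 rats) and days 2 to 4 (blue squares, 8 and 10 rats), for clock genes and the other genes with a day 1 slope past the threshold. The bars of most pairs overlap (Dbp 2.86 and 2.96), and those of some do not, such as Fam124a (0.67 and 0.10) and Glul (0.65 and 0.18).

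Outside the clock, 8 genes had a day 1 slope past the threshold, 5 of them upward. Ephx1, microsomal epoxide hydrolase, a detoxifying enzyme, read 378, 309 and 550 in the morning and 660, 695, 833, 858 and 752 in the afternoon. The groups did not overlap and Ephx1 rose by 1.28 ± 0.23 per 10 h (adjusted p by limma 0.011), beside 1.32 on days 2 to 4. Rasd2, a small GTPase of the Ras family, read 66.8, 68.8 and 97.6 against 111, 135, 182, 188 and 230, and rose by 1.70 ± 0.33 (adjusted p by limma 0.0212). Tmem86a, a lysoplasmalogenase gene, read 19, 19.1 and 26.9 against 30.6, 28.6, 40.2, 45.3 and 36.3, close to the minimum kept, and rose by 1.11 ± 0.21 (adjusted p by limma 0.0212). Both were apart in all rats, and both also passed on days 2 to 4, at 1.31 and 0.91 per 10 h.

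Glul and Fam124a were the 2 genes that passed on day 1 and not on days 2 to 4. Glul encodes glutamine synthetase. It read 1289, 1199 and 1600 in the morning rats and 1500, 1611, 2061, 2740 and 3203 in the afternoon, so the 2 latest rats were highest and the early afternoon overlapped the morning. Its day 1 slope was 1.20 ± 0.24 per 10 h (adjusted p by limma 0.0359) and that of days 2 to 4 was 0.37 ± 0.15 (adjusted p 0.343). The difference between the slopes was 0.82, with an interval from 0.23 to 1.42 and an unadjusted p of 0.00804, which did not pass adjustment. Without the rat of 17.6 h, the adjusted p of the day 1 slope was 0.431.

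Fam124a, an uncharacterized gene, read 38.1, 55.4 and 54 in the morning rats of day 1 and 61.4, 79.4, 86.1, 84.2 and 77.9 in the afternoon rats. No afternoon rat overlapped the morning. On days 2 to 4 the morning rats ran from 47.8 over a median of 55.1 to 83.9 and the afternoon rats from 50.5 over 60 to 75.5, which overlap throughout. The log2 difference was 0.67 ± 0.14 on day 1 and 0.10 ± 0.09 on days 2 to 4, and the slope 0.93 ± 0.18 (adjusted p by limma 0.0212) and 0.07 ± 0.11. The slopes differed by 0.86, interval 0.42 to 1.29, at an unadjusted p of 0.000391 that did not pass adjustment over all probe sets. Without the rat of 7 h, the lowest reading, the adjusted p of the day 1 slope was 0.653.

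Of the 3 downward genes, Cdkn1a has the best known function: it encodes p21, an inhibitor of cyclin-dependent kinases. It read 149, 137 and 89.4 in the morning and 50.3, 69.1, 61, 53 and 57.2 in the afternoon, with no overlap, and fell by 1.44 ± 0.27 per 10 h (adjusted p by limma 0.0169), beside 1.33 on days 2 to 4, which was also downward. Dtx4, an E3 ligase gene of the Deltex family, read 390, 346 and 246 against 243, 230, 171, 154 and 191, narrowly without overlap, and fell by 1.11 ± 0.20 (adjusted p by limma 0.00998). Its other probe set, dimmer, overlapped. Rnf144a, an E3 ligase gene too, fell in both of its probe sets, each by 1.23 per 10 h (adjusted p by limma 0.016 and 0.0491).

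Single rats decided several of these calls. Tef in 2 probe sets, Per3 and Bmal1 passed in all 8 fits that left out 1 day 1 rat. Dbp passed in 7 of 8 (adjusted p 0.0868 without the rat of 7 h) and Per2 in 6 of 8 (0.0896 without that of 17.6 h). Without the rat of 7 h, Cdkn1a had an adjusted p of 0.432, Ephx1 0.153, Dtx4 0.296, Rasd2 0.282, Tmem86a 0.351, Nfil3 0.432 and Hlf 0.664 and 0.438. Without the same rat none of the 3 probe sets of Nr1d2 passed (0.0577, 0.424 and 0.664), nor did the third of Tef (0.0577). Without that of 17.6 h it was 0.17 for Npas2 and 0.276 and 0.797 for the 2 probe sets of Rnf144a. Taken as 2 groups and without the rat of 10 h, 8 probe sets passed, all higher: 2 of Tef, 3 of Nr1d2 and those of Nr1d1, Per3 and Dbp. In that rat Dbp and Per3 lay between the earlier rats and the afternoon, and Nr1d1 lay within the afternoon range.

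**Figure D3:**
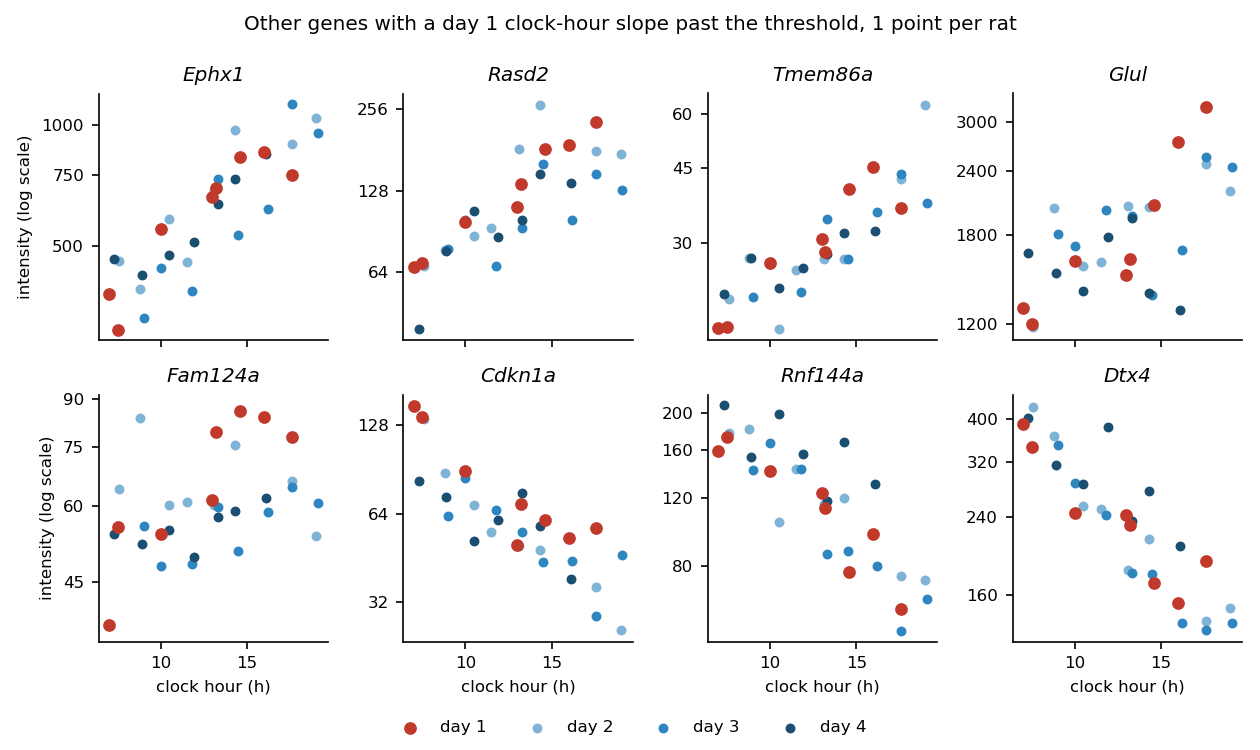
Intensity on a log2 axis against clock hour in h, 1 point per rat, day 1 in red and days 2 to 4 in blues, for the 8 genes outside the clock lists with a day 1 slope past the threshold. In Ephx1, Rasd2, Tmem86a, Cdkn1a, Rnf144a and Dtx4 the red points follow the blue ones, and in Fam124a the 4 latest day 1 rats (77.9 to 86.1) lie above most rats of the other days.

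No probe set differed between day 1 and days 2 to 4 after adjustment, either as 2 groups (0 of 21068, 0%, by limma) or as slopes (0, 0%). At an unadjusted p under 0.05 it was 592 probe sets (2.81%) as groups, 345 with the higher day 1 difference and 247 with the lower, and 746 (3.54%) as slopes. Each share is below that expected at this cutoff when no probe set differs. The lowest adjusted p was 1 in both. The 10 named genes with the lowest unadjusted p are therefore a description of where the days parted most, not calls.

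In 5 of the 10 the day 1 difference was the higher one. Adam9, a membrane metalloprotease gene, read 61.5, 52.6 and 65 in the day 1 morning and 67.5, 69.9, 76.1, 75.5 and 69.9 in the afternoon, with no overlap. The order was turned on days 2 to 4, with medians of 76.1 in the morning and 58.3 in the afternoon, and the difference between the days was 0.62 log2 (interval 0.32 to 0.91, unadjusted p by limma 0.000309). Met, the hepatocyte growth factor receptor, read 110, 93.6 and 116 against 134, 155, 129, 174 and 142 on day 1, and had medians of 140 and 112 on days 2 to 4 (difference between the days 0.83, interval 0.38 to 1.27).

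Vcl, which encodes the adhesion protein vinculin, read 92.3, 54.3 and 67.5 against 136, 149, 115, 109 and 74.2, so the latest rat overlapped the morning (1.06, interval 0.51 to 1.62). Il1r1, the interleukin 1 receptor, read 16.3, 15.7 and 22.1 against 30.1, 33.1, 32.2, 50.1 and 21.8 (1.25, interval 0.54 to 1.95), and here too the rat of 17.6 h fell among the morning rats. Hoxb7, a homeobox gene, was near the minimum, at 11.5, 15.5 and 10.8 against 16.5, 22.3, 16.1, 21.2 and 16.9 (0.59, interval 0.27 to 0.91). The Vcl, Il1r1, Adam9 and Met mornings of day 1 were low against those of the other days, whose medians were 119, 28, 76.1 and 140.

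In the other 5 the day 1 difference was the lower one. Arhgef4, a guanine nucleotide exchange factor gene, read 27.9, 45.7 and 38.6 against 22.4, 28.7, 27.5, 26.5 and 29.1 (-0.80, interval -1.20 to -0.40, unadjusted p by limma 0.000398). Zmiz1, a transcriptional coregulator gene, read 23.7, 27.4 and 24 against 18.3, 17.2, 19, 18.7 and 19.6, with no overlap, while its medians on days 2 to 4 were 18.4 and 18.6 (-0.51, interval -0.78 to -0.24). Nptxr (-0.77), Prr12 (-0.76) and Cbx1 (-0.47), the last a heterochromatin protein gene near the minimum of intensity, completed the 10. These intervals are for single probe sets and are not corrected for the number tested.

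**Figure D4:**
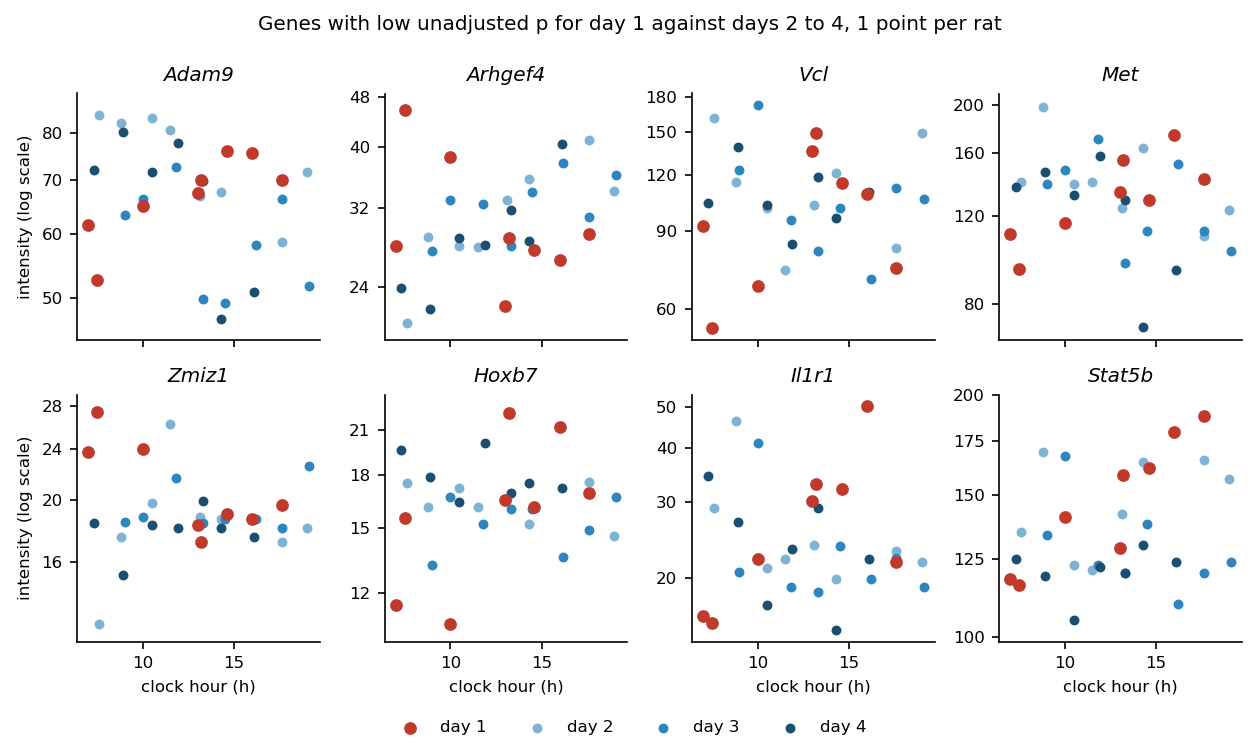
Intensity on a log axis against clock hour in h, 1 point per rat, day 1 in red and days 2 to 4 in blues, for 7 of the 10 named genes with the lowest unadjusted p for day 1 against days 2 to 4, and for Stat5b, a list member shown after its values were seen. In Adam9, Vcl, Met and Il1r1 the red morning points are low among the blue ones (Adam9 52.6 to 65), and none of the 8 genes passed adjustment.

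Genes that answer ovarian hormones showed no call between morning and afternoon of day 1. Of 7 measured genes of hormone receptors and the hormone-sensing epithelium, of 11 estrogen-induced genes and of 8 progesterone targets, in none did the afternoon lie above or below the morning in all rats, and none passed as a slope. Over all probe sets 2.79% lay above, 1.79% below and 0.0759% and 0.0332% passed as slopes, so lists of this size would hold few or none at the background share. The medians were -0.12, -0.04 and 0.05 log2 on day 1. Pgr, the progesterone receptor and itself an estrogen target, read 361, 164 and 302 in the morning and 132, 433, 409, 268 and 164 in the afternoon. Its lowest and its highest reading were both in afternoon rats, those of 13 and 13.2 h, and the difference was -0.05 ± 0.48 log2. Greb1, an estrogen receptor cofactor and target, went up and down in the same rats, at 264, 127 and 267 against 46.1, 273, 305, 136 and 82.4 (-0.63 ± 0.55). Against days 2 to 4 the interval was from -0.83 to 1.54 for Pgr and from -1.69 to 1.06 for Greb1, wide enough to hold large changes in either direction.

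Local signals of these hormones overlapped as well. Areg, the EGF-family ligand through which estrogen drives duct growth, read 2869, 395 and 571 against 2041, 3700, 1585, 2173 and 564 (0.98 ± 0.92). Wnt4, a paracrine signal of progesterone, had 0.29 ± 0.25, and 4 of its 5 afternoon rats, from 256 to 303, were above the morning rats at 180 to 233. Oxtr, the oxytocin receptor of myoepithelium, had 0.61 ± 0.55. None of the 3 passed as groups or as slopes.

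Neither prolactin targets nor milk genes had a call between morning and afternoon of day 1. The milk genes Csn2 and Wap varied more between rats than between these groups. Of 11 measured prolactin and STAT5 targets and 11 milk protein genes none separated the groups and none passed, with medians of -0.10 and -0.36 log2. At the shares over all probe sets, 2.79% above and 1.79% below, lists of 11 would hold few or none. Csn2, beta-casein, read 263, 15911 and 1149 in the morning and 169, 185, 722, 2648 and 5062 in the afternoon. Wap, whey acidic protein, followed the same rats, at 316, 14951 and 1663 against 190, 219, 357, 2156 and 6330. The rat of 7.5 h was highest in both, and among the afternoon rats both genes were higher the later the hour. The day 1 difference of Csn2, -1.10 ± 1.57, took the other sign as a slope (0.29 per 10 h) and without the rat of 7.5 h (0.52), and that of Wap was -1.45 ± 1.48. Prlr, the prolactin receptor, read 3425, 2684 and 4034 against 3035, 3258, 3435, 3083 and 2638, a difference of -0.12 ± 0.17.

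Stat5b, one of the pair of transcription factors that carry the prolactin signal, had the lowest unadjusted p of its list of 11 for day 1 against the other days, though not the largest difference. It read 118, 116 and 141 in the day 1 morning and 129, 159, 162, 180 and 188 in the afternoon, where 1 afternoon rat overlapped. On days 2 to 4 the morning ran from 105 over a median of 130 to 170 and the afternoon from 110 over 127 to 166. The difference was 0.38 ± 0.13 log2 on day 1 and -0.02 ± 0.09 on days 2 to 4, and the interval between them was 0.08 to 0.72 (unadjusted p by limma 0.0177, not passing adjustment).

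Glucocorticoid-responsive genes had a positive median on both sets of days, 0.47 log2 on day 1 and 0.28 on days 2 to 4, over 12 measured genes. Ddit4, an inhibitor of mTOR signalling that glucocorticoids induce, read 174, 117 and 200 in the morning and 307, 323, 372, 241 and 424 in the afternoon, and Nfkbia, which encodes the NF-kappa B inhibitor, 532, 480 and 467 against 587, 671, 752, 696 and 703. Neither overlapped and neither passed adjustment (1.04 ± 0.30 and 0.46 ± 0.16 log2). Fkbp5, a glucocorticoid receptor chaperone and a standard target, read 116, 139 and 117 against 106, 160, 199, 409 and 312, and Tsc22d3, an anti-inflammatory target, 1249, 839 and 1138 against 1032, 1109, 2178, 2002 and 2066. In both the 3 latest rats were the high ones, and the differences were 0.78 ± 0.45 and 0.59 ± 0.32. Cebpd, an adipogenic transcription factor, was below the morning in all afternoon rats, at 1463, 2091 and 2038 against 1297, 991, 1306, 1251 and 1109 (-0.64 ± 0.23), as was Cdkn1a, the 1 member with a day 1 slope past the threshold. In all, 2 of the 12 genes were above the morning in all afternoon rats and 2 below. The shares over all probe sets were 2.79% and 1.79%.

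Cell division genes had no call between morning and afternoon of day 1. None of 17 mitosis genes and none of 17 DNA replication genes had groups that did not overlap, where 2.79% (above) and 1.79% (below) of all probe sets did, which for 17 genes is fewer than 1 gene each way. Their medians were 0.09 and -0.03 log2 on day 1 and 0.35 and 0.21 on days 2 to 4. The mean level of the mitosis genes in the 8 rats of day 1 ran from -1.16 to -0.07 log2 relative to the mean of 31 rats, whose highest was 3.17. Ccnd1, cyclin D1 of the G1 phase, read 2810, 2207 and 2160 against 1722, 2240, 2062, 1602 and 1654 (-0.37 ± 0.23). Of the 16 measured early response genes none separated the groups, and Fos, an immediate early transcription factor, ran from 785 to 4497 in the afternoon around 2019 to 2938 in the morning.

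Lipid synthesis genes had members in both directions, none past the threshold. Of 15 measured genes of fatty acid and triglyceride synthesis, Dgat1 and Agpat2, which add acyl chains to glycerol backbones, were above the morning in all afternoon rats, and Acly, which supplies acetyl-CoA, was below it in all. Of all probe sets, 2.79% were above in this way and 1.79% below. Dgat1 read 844, 755 and 760 against 1090, 1450, 1071, 1092 and 1086 (0.55 ± 0.22), Agpat2 816, 349 and 555 against 962, 1434, 904, 941 and 837 (0.88 ± 0.39), and Acly 5547, 3222 and 3180 against 2484, 2830, 2460, 2931 and 3160 (-0.48 ± 0.30). No member passed, and the median was -0.10 log2. The median of 12 adipocyte markers was 0.26 on day 1 and 0.02 on days 2 to 4. Of 13 cholesterol genes, Idi1, isopentenyl diphosphate isomerase, read 7772 in the rat of 7.5 h and 191 to 376 in the other 7, so that its difference of -1.75 ± 0.75 rested on 1 rat and was -0.16 without it.

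Of 14 genes of the unfolded protein response, all afternoon rats were above the morning in 3, where 2.79% of all probe sets were, and below it in none. Herpud1, which works in degradation of endoplasmic reticulum proteins, read 598, 618 and 653 against 729, 715, 912, 1177 and 949 (0.50 ± 0.17), beside 0.47 on days 2 to 4. Atf4, the translation-controlled activator of the response, had 0.19 ± 0.09 and its target Ddit3 0.28 ± 0.15. None passed, and the list's median was 0.10. None of 11 heat shock genes separated the groups, where 2.79% of all probe sets lay above and 1.79% below.

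Of 10 macrophage markers, 2 were above the morning in all afternoon rats, where 2.79% of all probe sets were. Of 12 interferon-stimulated genes 1 was (Ifit3), and of 11 matrix proteases and inhibitors 1 was below it in all (Mmp14), where 1.79% of all probe sets were. Cd163, a scavenger receptor of resident macrophages, read 328, 405 and 306 against 439, 414, 432, 564 and 423 (0.39 ± 0.16), and C1qc, a complement subunit they secrete, 1029, 829 and 856 against 1146, 1127, 1264, 1797 and 1203 (0.52 ± 0.25). On days 2 to 4 the differences were -0.11 and -0.02, and the interval between the days for Cd163 was 0.10 to 0.91 (unadjusted p by limma 0.0171, not passing adjustment). The list's median was 0.23 on day 1 and -0.11 on days 2 to 4. Reg3b, an antibacterial lectin gene of the acute phase list, read 314, 326 and 400 against 62.2, 241, 23.5, 221 and 82.8 (-1.91 ± 0.68), below the morning in all afternoon rats. No luminal, basal, fibroblast, endothelial or skeletal muscle marker was apart in all rats. Single rats of day 1 did stand at an extreme. The rat of 17.6 h lay at the lowest mean log2 level of 31 rats in fibroblast and matrix genes (-0.87) and in endothelial markers (-0.35). That of 7.5 h lay at the lowest in adipocyte markers (-0.55). Fibroblast and endothelial levels were not used as covariates. Muscle content, given above, was lowest in 1 morning and 1 afternoon rat, and its part in these results was not tested beyond a fit with marker levels of fat, muscle and lymphocytes as covariates, in which there was again no call between the 2 groups. With the same covariates in the slope fit, Glul no longer passed (adjusted p by limma 0.0764), and the other 16 genes with a day 1 slope did.

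Over the 36 gene lists, 349 of 436 genes were measured. Leaving out the 18 clock genes, 331 remained, of which the afternoon was above the morning in all rats in 12 (3.63%) and below in 5 (1.51%), close to the shares over all probe sets, 2.79% and 1.79%.

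**Figure D5:**
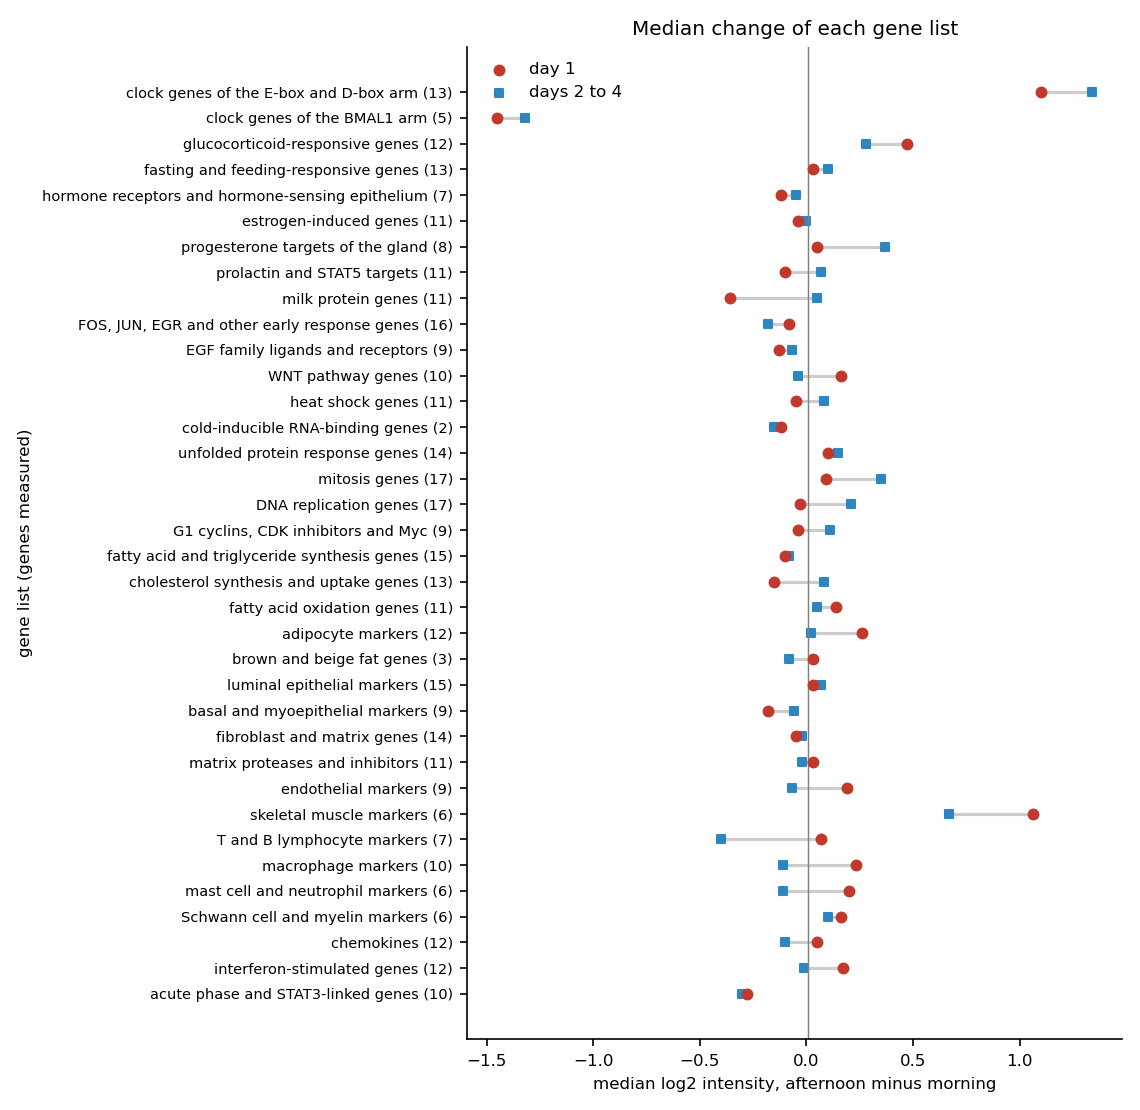
Median over each list's measured genes (number in brackets) of the log2 difference, afternoon minus morning, on day 1 (red circles) and days 2 to 4 (blue squares), with the median of all probe sets on day 1 as a grey line. The E-box/D-box clock arm (1.10 and 1.34) and the BMAL1 arm (-1.45 and -1.32) lie far from the line on both, and the muscle markers (1.06 and 0.67) vary among rats of 1 group by more than their shift.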

How the data were processed

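RNA from the mammary glands of 32 rats was hybridized, 1 rat to an Affymetrix Rat 230 2.0 array. The authors deposited linear intensity values, from 2.22 to 37317, computed with GC-RMA, an algorithm that subtracts probe-sequence background and puts arrays on 1 scale. The submitters' notes call it GCRMA, and its version is not given in the sources used here. Values were log2-transformed for this work. Of 31099 probe sets, 57 controls were left out and 21068 with at least 10 on all arrays but that of 40 h, which the study discarded as corrupted, were kept. Of these, 15568 had 1 gene symbol (15524 updated through Entrez identifiers, 1 through an accession, 43 under the array's own name), 353 several and 5147 none.

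Group differences came from limma on 26 rats of the 4 days, 1 mean per day and time of day (18 residual degrees of freedom), and slopes from limma on 31 rats, with a mean per day and 1 clock-hour slope each for day 1 and for days 2 to 4. Benjamini-Hochberg adjustment ran over all probe sets, with a threshold of 0.05. Rats of a group differ in hour, so p-values measure rat, hour and array together, and precision is limited by how few arrays there are. No batch of slides or scans was known.

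The genes named are the 10 probe sets with a single symbol and the lowest unadjusted p on day 1 and in day 1 against days 2 to 4, since none passed, those with a day 1 slope past the threshold, and list members. In lists, a gene was read from its brightest probe set by mean log2 intensity. The comparison and the gene lists were chosen with earlier results of these data known. The fits were tested on simulated data. Alternatives covered the filter, normalization, variance model, array weights, clock windows, covariates and each rat left out. R 4.3.3, limma 3.58.1, Python 3.11.15, numpy 2.4.6, pandas 2.3.3 and matplotlib 3.10.9 were used.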

Additional observations from a re-analysis of the deposited data

Results flagged for a closer look

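Among 106 sets of 5 afternoon rats of day 1 (named genes and list means), 6 had 1 rat whose gap to its nearest neighbour exceeded Dixon's 95% critical value of 0.71 of the whole range, and chance flags about 1 in 20 groups. The rat of 13.2 h was high in Dgat1 (1450) and Agpat2 (1434). The rat of 16 h was high in C1qc (1797), Cd163 (564) and Ddit3 (215). The rat of 13 h was low in Wnt4 (161). Groups of 3 morning rats are too small for this comparison.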

How the results depend on the processing

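No paired analysis was possible because every rat is a different animal and the replicate numbers are only names in accession order. The count of 0 between morning and afternoon of day 1 held under no filter, a mean intensity of at least 20, quantile normalization, trended and robust variances, array weights, the 8 rats of day 1 alone, strict and wide clock windows, the 40 h array kept and tissue marker lists as covariates. It was 16 higher and 7 lower with the clock-hour slope, and from 0 to 8 higher when 1 rat was left out, 8 without the morning rat of 10 h. On days 2 to 4 (19 higher, 16 lower) the counts were 85 and 68 with array weights, where the rat of 88.1 h had a weight of 5.55, 138 and 76 in the wide window, 152 and 84 as slopes, 34 and 25 with the 40 h array and 41 and 30 with tissue covariates, and from 10 to 55 and from 5 to 31 when 1 rat was left out. The cause was not tested. Settings added after the data were seen gave from 4 to 18 upward and from 1 to 15 downward day 1 slopes without 1 day 1 rat, 15 downward with tissue covariates, and 1 slope higher on day 1 than on days 2 to 4 without the rat of 7.5 h, that of Lilra5 (1.88 per 10 h, adjusted p by limma 0.0287), an immune receptor gene. Among named genes, the day 1 difference changed sign for Pgr without the rat of 7 h (0.18), 10 h (0.05), 13 h (0.18) and 17.6 h (0.10), with a range of -0.39 to 0.18, for Prlr without that of 10 h (0.02, range -0.27 to 0.02), for Csn2 as a slope (0.29), with tissue covariates (0.59) and without the rat of 7.5 h (0.52, range -2.44 to 0.52), for Wap with tissue covariates (0.26) and without that rat (0.00, range -2.78 to 0.00), and for Oxtr with tissue covariates (-0.09). Depth here is signal over background, and probe sets near 10, such as Hoxb7 and Cbx1, are the least certain.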
